A study of Homo sapiens with 6 samples.

Results

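The genes described here are 45 listed genes of collagens, other extracellular matrix proteins, the enzymes that crosslink them and the proteases and inhibitors that turn them over. They were listed by name and function, with earlier results of these data known. Each was represented by 1 single-gene probe set, the brightest of that gene on average over all arrays. Of the 45 genes, 44 had such a probe set, out of 19775 genes in all, and COL17A1 was not analysed here. A filter on dim probe sets left 39 of them among 13738 genes tested. COL6A3, COL8A1, SPOCK1, THBS2 and VCAN did not pass it and have values but no test.

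RNA came from AGS and HGC-27, both established human gastric cancer cell lines, measured on 1-colour Affymetrix arrays. Each line had 3 conditions with 1 array each. The parental cells received no plasmid and are not described as sorted. GFP control cells were nucleofected with 3 µg of empty vector and 1.5 µg of a GFP plasmid, and MIST1 cells with 3 µg of a MIST1 plasmid and the same GFP plasmid. Both were sorted for GFP after 24 h and grown for 24 h more, and 5 µg of total RNA was labelled. MIST1 is a basic helix-loop-helix transcription factor of secretory cells, encoded by BHLHA15, and the series asked which genes its transient expression raises. Since each condition has 1 array per line and no label names separate cultures, p-values measure the spread between single arrays. They do not measure the spread between cultures. In a comparison of conditions that spread includes how far the 2 lines disagree in their change. A gene that changes in 1 line alone is therefore less readily called.

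The extracellular matrix is a meshwork that cells secrete and attach to. Fibrillar collagens give connective tissue its tensile strength and are made mainly by fibroblasts and other mesenchymal cells, while type IV collagens form the sheet-like basement membrane on which an epithelium sits. Lysyl oxidases crosslink the fibres, small leucine-rich proteoglycans regulate fibril assembly, matricellular proteins carry signals between matrix and cell, and matrix metalloproteinases and their inhibitors, the TIMPs, control breakdown.

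Upstream DNA of 6 of these genes is printed because the values below turn on them: CCN2 and THBS1 were the matricellular genes higher in AGS, SPARC and POSTN those with the greatest excess in HGC-27, and COL4A1 and COL4A2 are transcribed in opposite directions from start sites 127 bases apart. The sequences are RefSeq's for GRCh38.p14, 250 bases upstream of the annotated start on the gene's own strand, or all 126 bases between the COL4A1 and COL4A2 starts on the plus strand. Capitals in the first 3 mark GGAATG on either strand, the letters bound by TEAD factors. In POSTN they mark TATAAA on either strand, the letters of a TATA box, and in the last CCAAT on either strand.
CCN2 upstream, chr6:131951373-131951622, minus strand: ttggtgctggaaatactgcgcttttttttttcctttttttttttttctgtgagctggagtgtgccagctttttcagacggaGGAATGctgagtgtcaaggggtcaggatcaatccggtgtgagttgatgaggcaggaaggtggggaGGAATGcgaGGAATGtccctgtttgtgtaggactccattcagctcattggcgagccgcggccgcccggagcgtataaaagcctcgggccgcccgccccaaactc
THBS1 upstream, chr15:39580829-39581078, plus strand: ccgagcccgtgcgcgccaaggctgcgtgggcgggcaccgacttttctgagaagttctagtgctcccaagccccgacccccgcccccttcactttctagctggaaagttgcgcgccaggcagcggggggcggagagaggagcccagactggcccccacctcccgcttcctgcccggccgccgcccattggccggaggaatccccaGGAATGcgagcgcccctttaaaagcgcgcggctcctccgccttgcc
SPARC upstream, chr5:151686916-151687165, minus strand: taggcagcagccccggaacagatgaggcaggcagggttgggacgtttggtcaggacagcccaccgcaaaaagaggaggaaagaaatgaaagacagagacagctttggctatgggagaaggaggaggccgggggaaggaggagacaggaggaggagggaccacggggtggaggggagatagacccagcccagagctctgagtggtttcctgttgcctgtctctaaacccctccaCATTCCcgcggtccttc
POSTN upstream, chr13:37598769-37599018, minus strand: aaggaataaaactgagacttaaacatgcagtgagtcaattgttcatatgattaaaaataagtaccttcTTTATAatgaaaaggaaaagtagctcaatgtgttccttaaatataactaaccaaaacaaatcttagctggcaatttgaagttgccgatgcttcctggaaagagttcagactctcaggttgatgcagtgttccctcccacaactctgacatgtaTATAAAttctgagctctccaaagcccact
COL4A1 to COL4A2, chr13:110307158-110307283, plus strand: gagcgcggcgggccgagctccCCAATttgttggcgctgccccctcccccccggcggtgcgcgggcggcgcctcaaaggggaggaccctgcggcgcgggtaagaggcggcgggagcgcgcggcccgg

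An upstream window was found for 32 of the 45 genes, in 37 windows. GGAATG was present 3 times upstream of CCN2, with first bases 169, 104 and 95 bases before the start, and 1 time each upstream of THBS1 and SPARC. It occurred in 6 of the 37 windows, the other genes being COL12A1, FBN1 and THBS2, and in 11.9% of all 34943 windows. TATAAA occurred in 9 of the 37 windows and in 10.8% of all windows. POSTN held it 2 times, with first bases 182 and 29 bases before the start, the one at 182 on the opposite strand. CCAAT occurred in 14 of the 37 windows and in 32.0% of all windows. GGGCGG, a GC box, and CATATG, an E-box, were also searched and are not marked above. GGGCGG occurred in 24 of the 37 windows and in 42.5% of all windows. CATATG occurred in 1 of the 37, that of POSTN, and in 2.63% of all windows. These matches describe letters in a window, not bound sites, and genes higher in either line held GGAATG.

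All 6 arrays had medians of deposited intensity between 49.12 and 51.96. Intensities were set to a floor of 17.6, the 25th percentile of all values, before log2, so a difference from a group under the floor is a lower bound. Pearson correlations over the genes tested were 0.971 or above within a line and 0.692 to 0.719 between the lines. Intensities of different probe sets are not on a common scale, so levels are compared only within a gene. The exception is the summed intensity of a marker list, which weighs its brightest probe sets most. In RNA from whole cultures, fewer cells that express a gene and less of its RNA per cell cannot be told apart.

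Matrix genes differed between the lines, and at most 1 was called in a comparison of conditions on all 6 arrays. Between AGS and HGC-27, with condition in the model and the 3 conditions of a line standing in for replicates, limma called 34 of the 39 tested genes at an adjusted p under 0.05. Of these, 26 were higher in HGC-27, or 66.7%, against 27.3% of all genes tested, and 8 were higher in AGS, or 20.5%, against 33.2%. The median absolute difference was 2.88 on the log2 scale for the matrix genes and 0.50 for all genes tested. At least 10-fold differences were found for 16 of 39 matrix genes and for 7.14% of all genes, and at least 50-fold differences for 8 matrix genes and 1.46% of all genes. The 3 AGS arrays did not overlap the 3 HGC-27 arrays for 33 of the 39 genes. The same share over all genes tested is not given here, so this count cannot be set against it.

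**Figure D1:**
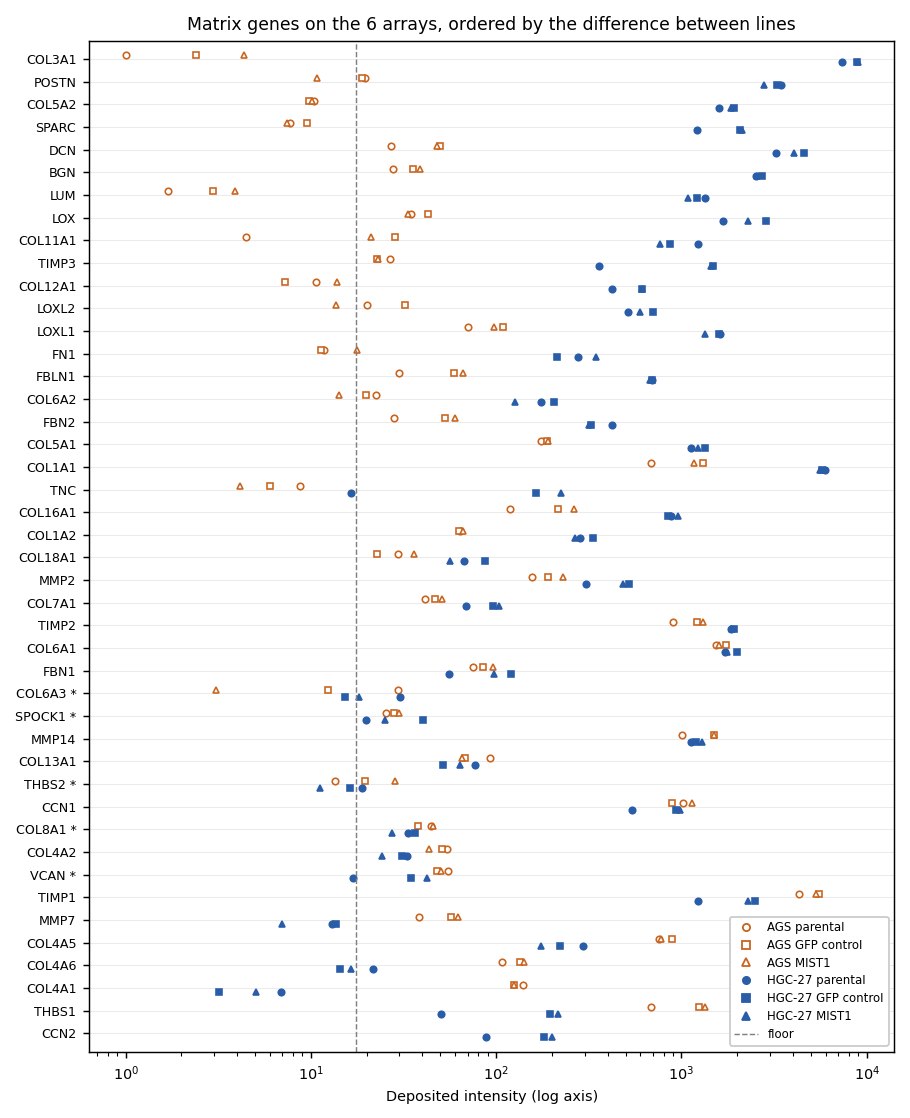
Deposited intensity (log axis) of the 44 matrix genes on the 6 arrays, ordered by the difference between lines, with AGS as open orange and HGC-27 as filled blue symbols (circle parental, square GFP control, triangle MIST1), the floor of 17.6 as a dashed line and an asterisk for the 5 genes not tested. COL3A1 and POSTN stand at the HGC-27 end, THBS1 and CCN2 at the AGS end, and the 3 conditions of a line lie close together for most genes.

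The fibrillar collagens, which form the striated fibres of connective tissue, were all higher in HGC-27 (6 of 6 called, median difference of 4.07 on the log2 scale). In each triple of values below the order is parental, GFP control and MIST1. COL3A1, the type III collagen of reticular fibres, had intensities of 1.0, 2.4 and 4.38 in AGS against of 7383, 8842 and 8943 in HGC-27. All AGS values lay under the floor, so the difference of 8.89 (SE 0.12, limma adjusted p = 2.58e-07) is at least 475-fold, and it ranked 4 among all genes tested. COL5A2, a type V chain that sets fibril diameter, read 10.4, 9.79 and 10.1 in AGS against 1584, 1915 and 1860 in HGC-27. COL11A1, the minor fibrillar chain found in cartilage, read 4.44, 28.3 and 21.2 in AGS against 1230, 868 and 766 in HGC-27. Every HGC-27 array was above every AGS array for both genes. The line means differed by at least 101-fold for COL5A2 and by at least 42.6-fold for COL11A1, which had 1 AGS array under the floor. The type I chains differed less by their chosen probe sets. COL1A1 lay at 682, 1314 and 1164 in AGS against at 5944, 5708 and 5620 in HGC-27, a difference of 2.50 (SE 0.19). COL1A2 differed by 2.18 and COL5A1 by 2.73.

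The size of these differences depended on the probe set. COL3A1 had 5 probe sets, and 3 of them with bright HGC-27 signal differed by 7.47 to 8.89 on the log2 scale. Another differed by 2.70. The last read at most 76.9 in AGS and 58.4 to 93.1 in HGC-27, and when it represented the gene the lines overlapped, at an adjusted p = 0.121 in limma with a difference of 0.33. Over the probe sets that passed the filter, COL1A1 differed by 1.0 to 4.48, COL1A2 by 2.18 and 3.41 and COL5A1 by 2.73 to 5.30, all higher in HGC-27.

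Basement membrane collagens ran the other way, with 4 of 5 higher in AGS. COL4A1, the major basement membrane chain, read 140, 125 and 124 in AGS against 6.93, 3.21 and 5.08 in HGC-27, at least 7.37-fold (2.88, SE 0.17). COL4A2, its partner chain in the same triple helix and its head-to-head neighbour, read 54.2, 51.2 and 43.6 in AGS against 33.2, 31.0 and 24.2 in HGC-27. Both genes of the pair were thus higher in AGS, COL4A2 by 0.76 (SE 0.18, limma adjusted p = 0.0107). That call was lost without the AGS GFP control, without the AGS MIST1 or without the HGC-27 MIST1 array (adjusted p in limma 0.0511 to 0.056) and with the floor at the median (0.744). COL4A6 and COL4A5 are a second head-to-head pair, with start sites 380 bases apart on chromosome X. COL4A6 read 108, 135 and 142 in AGS against 21.7, 14.4 and 16.4 in HGC-27, and COL4A5 read 758, 893 and 776 against 294, 221 and 175. Both members of this pair were also higher in AGS, COL4A6 by at least 2.75, with 2 HGC-27 arrays under the floor, and COL4A5 by 1.84. The other passing probe set of COL4A6 differed by 0.42 and that of COL4A5 by 1.28, both higher in AGS. COL18A1, whose C-terminal fragment is endostatin, was the exception and was higher in HGC-27 by 1.26 (SE 0.27), at dim intensities of 22.7 to 36.0 in AGS and 56.0 to 87.0 in HGC-27, a call lost without the filter (adjusted p in limma 0.0792).

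Of the remaining collagens, 4 of 6 tested were higher in HGC-27 and none was called higher in AGS. COL12A1, which decorates the surface of collagen fibrils, read 10.7, 7.25 and 13.8 in AGS against 421, 612 and 615 in HGC-27, at least 30.7-fold. COL6A2, a chain of the beaded filaments around cells, read 22.4, 19.8 and 14.1 in AGS against 174, 206 and 127 in HGC-27. Its partner chain COL6A1 was not called: AGS at 1537 to 1731 overlapped HGC-27 at 1726 to 2000 (difference 0.17, SE 0.07, limma adjusted p = 0.0847). COL6A1 was called higher in HGC-27 with quantile normalization, without the filter and without either or both parental arrays (adjusted p in limma 0.00422, 0.0311 and 0.0109 to 0.0126). COL16A1 was higher in HGC-27 by 2.24 and COL7A1, the anchoring fibril collagen, by 0.93. COL13A1, a transmembrane collagen read by a probe set that can cross-hybridize, differed by 0.23 with overlapping lines. COL6A3 and COL8A1 did not pass the filter, with intensities from 3.07 to 45.8 over all 6 arrays.

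Of the glycoproteins and microfibril proteins, 3 of 4 were higher in HGC-27. FN1, fibronectin, the adhesive protein bound by integrins, read 11.7, 11.4 and 17.8 in AGS against 277, 213 and 346 in HGC-27, at least 15.5-fold, with 2 of the AGS arrays under the floor. FBLN1, an elastic fibre and basement membrane protein, read 29.8, 59.1 and 66.3 in AGS against 689, 690 and 675 in HGC-27. FBN2, a microfibril protein, read 28.1, 52.8 and 60.2 in AGS against 420, 324 and 316 in HGC-27. No array of one line reached those of the other for the chosen probe sets of these 3 genes. Another passing probe set of FN1 overlapped, at 84.4, 37.3 and 46.3 in AGS against 90.7, 57.0 and 75.4 in HGC-27, and so did one of FBLN1, with a difference of 0.02. FBN1, the paralogue of FBN2, overlapped, with AGS at 74.5 to 96.6 and HGC-27 at 55.8 to 120.

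Matricellular genes split between the lines, 3 higher in HGC-27, 2 higher in AGS and 1 not called. POSTN, periostin, a stromal protein that binds collagen, read 19.5, 18.9 and 10.8 in AGS against 3458, 3281 and 2795 in HGC-27 (7.41, SE 0.12, at least 170-fold, with 1 AGS array under the floor). SPARC, a collagen-binding protein of remodelling matrix, read 7.73, 9.57 and 7.44 in AGS against 1215, 2079 and 2132 in HGC-27, at least 99.6-fold. CCN2, connective tissue growth factor and a textbook target of YAP and TEAD, showed the reverse pattern, with 3049, 2931 and 3704 in AGS against 87.8, 181 and 200 in HGC-27 (4.45, SE 0.21, limma adjusted p = 5.1e-06). THBS1, thrombospondin 1, an activator of latent TGF-beta, read 684, 1237 and 1339 in AGS against 50.6, 196 and 215 in HGC-27. CCN2 and THBS1 thus stood 21.8-fold and 8.11-fold higher in AGS, with no overlap between the lines. CCN1, the closest relative of CCN2 in this set, was not called: it read 1024, 892 and 1135 in AGS against 541, 930 and 976 in HGC-27, with overlapping arrays (0.36 higher in AGS, limma adjusted p = 0.139). Without the GFP control array of either line it was called, by 0.57 (adjusted p in limma 0.018 and 0.0181).

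TNC, tenascin C, was the called gene whose lines overlapped after the floor, because the HGC-27 parental array read 16.5 while the GFP control and MIST1 arrays read 165 and 224. The AGS arrays read 8.68, 5.99 and 4.15, and the difference of 2.30 had an SE of 0.67 (limma adjusted p = 0.0226). The TNC call was lost without the filter, without a variance trend and without the condition in the model (adjusted p in limma 0.196, 0.0509 and 0.0506). SPOCK1 and THBS2 did not pass the filter.

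Proteoglycans and crosslinking enzymes were higher in HGC-27 without exception among the 6 tested. DCN, decorin, read 27.2, 49.6 and 48.1 in AGS against 3244, 4607 and 4070 in HGC-27. BGN, biglycan, read 27.6, 35.6 and 38.6 in AGS against 2536, 2736 and 2545 in HGC-27. LUM, lumican, lay under the floor in AGS at 1.7, 2.96 and 3.89 and read 1337, 1214 and 1082 in HGC-27. The 3 differences were 97.8-fold, 77.4-fold and at least 68.6-fold, and the probe sets of DCN and BGN carry names that allow cross-hybridization. The other passing probe set of LUM read 97.5, 74.2 and 64.0 in AGS against 182, 201 and 184 in HGC-27, a difference of 1.29. VCAN, versican, did not pass the filter, with 48.0 to 55.0 in AGS and 16.8 to 42.1 in HGC-27.

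LOX, the lysyl oxidase that starts collagen crosslinking, read 34.9, 42.8 and 33.6 in AGS against 1671, 2842 and 2276 in HGC-27, a 59.9-fold difference. Its relative LOXL2 read 20.1, 32.1 and 13.6 in AGS against 514, 704 and 598 in HGC-27. LOXL1, which acts on elastin, read 70.8, 109 and 97.7 in AGS against 1610, 1601 and 1334 in HGC-27. These 3 enzymes thus stood 16.6-fold to 59.9-fold higher in HGC-27, with 1 AGS array of LOXL2 under the floor. Of their relatives outside the 45 genes, LOXL3 was higher in AGS by 1.0 (limma adjusted p = 4.16e-04), and LOXL4 differed by 0.39 and was not called.

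Proteases and inhibitors were divided, 3 higher in HGC-27, 2 in AGS and MMP14 not called. TIMP3, the inhibitor that stays bound to matrix, read 26.6, 22.6 and 23.1 in AGS against 357, 1481 and 1443 in HGC-27 (5.25, SE 0.44). TIMP1, a soluble inhibitor, was instead higher in AGS, at 4285, 5497 and 5314 against 1232, 2498 and 2290. MMP7, matrilysin, an epithelial protease, was higher in AGS by 1.55 with all HGC-27 arrays under the floor, a call lost with the floor at the median. MMP2, gelatinase A, was higher in HGC-27 by 1.17 and TIMP2 by 0.74. Both depended on the probe set. Another passing probe set of MMP2 differed by 0.17 with overlapping lines. Of TIMP2, 1 other differed by 0.08 with overlap and 1 by 0.93 without. MMP14, the membrane protease that activates MMP2, differed by 0.12 (limma adjusted p = 0.384). It was called higher in AGS when its probe sets were averaged (0.56, limma adjusted p = 0.00346) and without either or both parental arrays (0.26, adjusted p in limma 0.00169 to 0.00205).

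**Figure D2:**
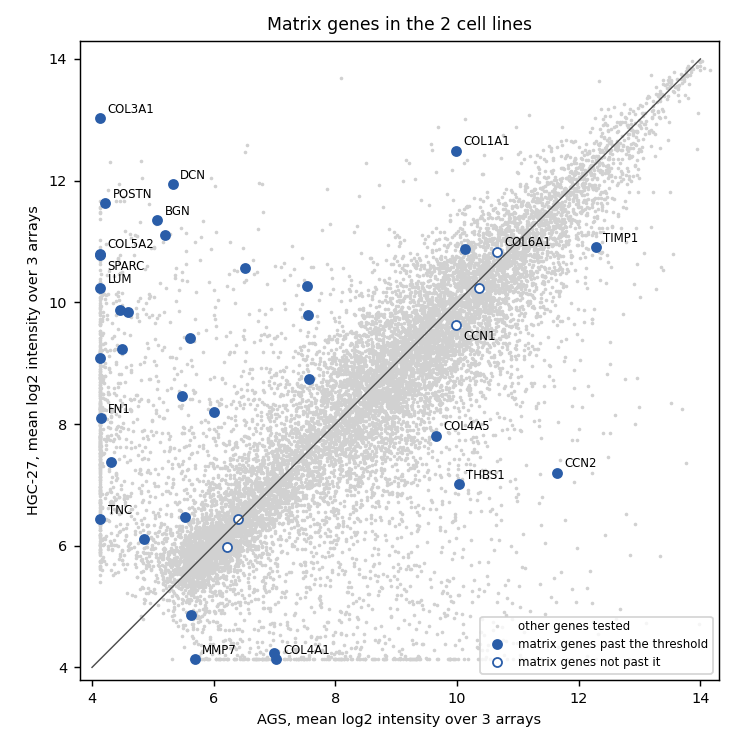
Mean log2 intensity over 3 arrays in AGS (horizontal) and HGC-27 (vertical) for all genes tested (grey) and for the matrix genes, filled where limma called the difference and open where it did not, with the line of equality. Most matrix genes lie above the line, COL3A1 highest, and CCN2, THBS1, COL4A1 and TIMP1 lie below it.

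Other probe sets of the called genes mostly gave the same direction. Of 53 further probe sets that passed the filter, for 26 called genes, 51 had the same direction and 45 of those had no overlap between lines. The 2 in the other direction were a probe set of FBN2, higher in AGS by 0.63, and a probe set of LOXL2, higher in AGS by 0.48. Of 19 probe sets of called genes that did not pass the filter, 12 had the same direction.

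Markers of cell type moved with the lines. All 10 gastric epithelial markers, among them EPCAM and KRT18, were higher in AGS, with a summed intensity of 48528 to 56610 in AGS and 1632 to 1909 in HGC-27, where KRT19 and CLDN4 lay under the floor on every array. Of 10 mesenchymal markers, 7 were higher in HGC-27, including VIM by 5.60, TWIST1 by 6.63 and SNAI2 by 6.68, and TAGLN was higher in AGS by 4.66, with sums of 5953 to 10564 in AGS and 25548 to 30573 in HGC-27. Of 6 fibroblast and pericyte markers, FAP, PDGFRB and THY1 were higher in HGC-27 by 2.63, 1.79 and 0.70 and PDGFRA was higher in AGS by 0.71, with sums of 1257 to 1466 and 1299 to 1582. Of 10 endothelial and leukocyte markers, 9 were on the array and 3 passed the filter, and limma called 0 of them (0 at an unadjusted p under 0.05), with sums of 293 to 371 in AGS and 351 to 381 in HGC-27. The part of these markers in the matrix difference was not tested.

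Genes that act on matrix proteins differed between the lines in both directions. Their counts stand beside 27.3% of all genes tested called higher in HGC-27 and 33.2% called higher in AGS, and the share of several lists is near one of these. Of 18 collagen-modifying genes tested (20 listed), 10 were higher in HGC-27 and 4 in AGS. The 4 largest differences were those of FKBP10, a collagen chaperone, at 5.55, PCOLCE, an enhancer of procollagen cleavage, at 5.16, P3H2, a prolyl 3-hydroxylase, at 5.05, and PLOD2, a lysyl hydroxylase, at 4.62, while P4HA2, a prolyl hydroxylase subunit, was higher in AGS by 2.03. Of 17 TGF-beta pathway genes tested (18 listed), 9 were higher in AGS and 6 in HGC-27. The receptor TGFBR2 and the target TGFBI were higher in AGS by 4.62 and 3.95, and the ligand TGFB3 and the latency protein LTBP1 higher in HGC-27 by 3.75 and 3.46. Of 20 further matrix genes tested (27 listed), 12 were higher in HGC-27, led by CCN3 (6.89), IGFBP7 (6.21) and FSTL1 (5.82). The 3 higher in AGS were HSPG2 (3.83), which encodes the basement membrane proteoglycan perlecan, MATN3 (3.33) and AGRN (1.32). Of 17 further proteases and inhibitors tested (21 listed), 7 were higher in HGC-27 and 5 in AGS, led by HTRA1 (5.88) and by MMP1 (5.03), the interstitial collagenase.

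Between the GFP control and parental cells, limma called 0 of the 39 matrix genes on all 6 arrays (9 at an unadjusted p under 0.05, 23.1% against 23.0% of all genes), and 0.247% of all genes. Nucleofection, vector and GFP plasmids, sorting and handling all differ between these groups and cannot be told apart. The mean change over both lines was above 0 for 31 of 39 genes and for 8078 of all 13738 genes tested, with medians of 0.27 and 0.07. Higher in both lines were 35.9% of the matrix genes against 37.1% of all genes, and lower in both 7.69% against 23.4%. A line whose values all lay under the floor has a change of 0 and counts as neither. Each line has 1 array per condition, so changes within a line are single differences without a replicate. At least 1.5-fold higher in AGS were 9 of 39 matrix genes, 23.1% against 7.97% of all genes, and in HGC-27 10 of 39, 25.6% against 13.2%. By its chosen probe set none of the 39 was 1.5-fold lower in either line, against 6.01% of all genes in AGS and 5.28% in HGC-27. Of 63 other probe sets of these genes that passed the filter, 5 were past 1.5-fold lower: 2 of POSTN at 0.496-fold and 0.594-fold and 2 of COL11A1 at 0.542-fold and 0.397-fold in HGC-27, and 1 of FN1 at 0.442-fold in AGS and 0.628-fold in HGC-27. COL6A3, which was not tested, read 29.6 and 12.4 on the parental and GFP control arrays of AGS and 30.1 and 15.3 on those of HGC-27, the second of each pair under the floor.

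By its chosen probe set, THBS1 was the 1 gene of the 39 at least 1.5-fold higher in both lines, against 3.12% of all genes higher and 1.55% lower. It went from 684 to 1237 on the AGS arrays and from 50.6 to 196 on those of HGC-27, a mean change of 1.40 (SE 0.28, limma adjusted p = 0.0718). Of its 4 other probe sets that passed the filter, 3 gave 1.98-fold to 2.23-fold in AGS and 1.75-fold to 3.66-fold in HGC-27, and 1 gave 1.19-fold and 1.04-fold. Other passing probe sets were past 1.5-fold in both lines for COL1A1 (1.56-fold and 1.71-fold), COL3A1 (1.54-fold and 1.55-fold), MMP14 and COL13A1 (3.58-fold and 1.70-fold, against 0.734-fold and 0.68-fold by its chosen probe set). The other 8 genes past the fold in AGS were COL1A1, COL11A1, COL16A1, FBLN1, FBN2, DCN, LOXL1 and LOXL2, with changes of 0.62 to 0.99. The other 9 in HGC-27 were TNC, TIMP3, FBN1, CCN2, TIMP1, CCN1, SPARC, LOX and MMP2, with changes of 0.77 to 3.23. Whether the lines differ in this change was not tested.

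Some markers outside the matrix genes also had higher values on the GFP control arrays, in AGS and HGC-27 respectively: THY1 was 1.91-fold and 2.01-fold higher, S100A4 1.52-fold and 1.57-fold, KRT7 1.84-fold and 1.62-fold, and CDH1 1.30-fold and 4.07-fold. None of these was called (adjusted p in limma 0.0528 to 0.14). They were picked from longer lists whose members did not all rise. Higher in both lines were 6 of 10 gastric epithelial, 4 of 10 mesenchymal and 3 of 6 fibroblast and pericyte markers, against 37.1% of all genes. In HGC-27, 1 epithelial marker was past 1.5-fold lower. The part of these markers in the matrix changes was not tested.

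In HGC-27 the greatest changes were those of TNC, from 16.5 to 165, and of TIMP3, from 357 to 1481, while in AGS TNC stayed under the floor and TIMP3 went from 26.6 to 22.6. Their mean changes of 1.61 and 0.91 had SEs of 0.82 and 0.53, which include this disagreement between the lines. All 4 probe sets of TIMP3 were higher in the HGC-27 GFP control, by 1.68-fold to 4.15-fold. TIMP1 went from 4285 to 5497 on the AGS arrays and from 1232 to 2498 on those of HGC-27 (mean change 0.69, SE 0.16, limma adjusted p = 0.0853). DCN went from 27.2 to 49.6 and from 3244 to 4607 (0.69, limma adjusted p = 0.0895). FBN1 had a mean change of 0.65 and LOXL2 of 0.56, both higher in both lines. MMP14 depended on its probe set: the brightest gave 1.48-fold in AGS and 1.07-fold in HGC-27, and the other 3 gave 2.05-fold to 2.06-fold and 1.76-fold to 2.22-fold.

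**Figure D3:**
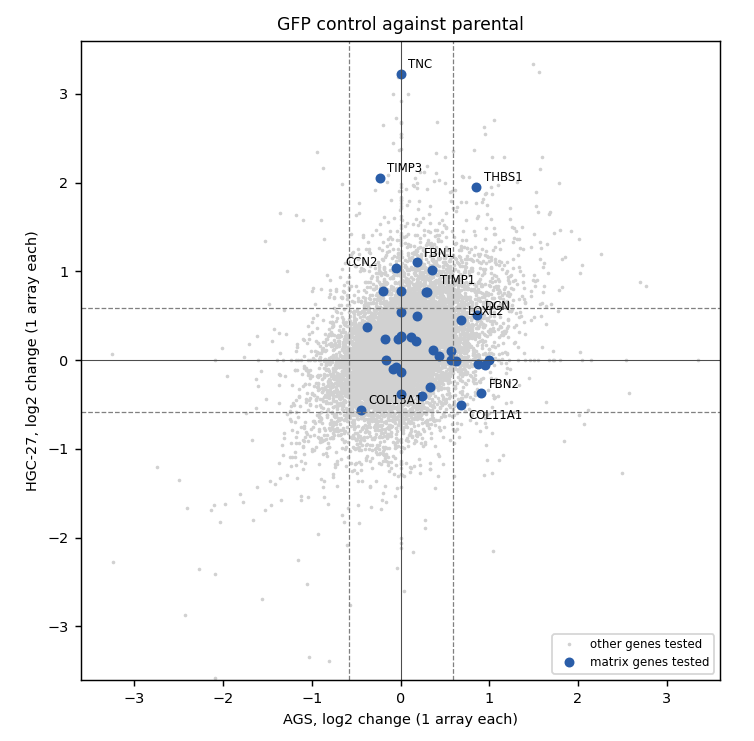
Log2 change of the GFP control against parental in AGS (horizontal) and HGC-27 (vertical), 1 array each, for all genes tested (grey) and the 39 matrix genes (blue), with dashed lines at 1.5-fold and 7 genes, none of them a matrix gene, outside the axes. THBS1 is the matrix gene past 1.5-fold in both lines by its chosen probe set, and TNC and TIMP3 change in HGC-27 by 3.23 and 2.05.

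The count of 0 depended on which arrays entered. A fit of the 4 arrays of these conditions alone called 6 matrix genes, all higher: THBS1, TNC, TIMP3, COL1A1, DCN and TIMP1, by 0.44 to 1.61, which is 15.4% against 6.63% of all genes. Without the AGS parental array 18 were called (15 higher, 3 lower), 46.2% against 39.0% of all genes, and without the HGC-27 parental 12, 30.8% against 33.6%. Without the AGS MIST1 array 6 were called, 15.4% against 6.59%, and without the HGC-27 MIST1 array 5, 12.8% against 6.73%. Leaving out the GFP control of AGS gave 4, 10.3% against 1.46%, and that of HGC-27 gave 0, against 0.466%. Without an array of either condition, the difference in its line rests on a lone array assumed to vary like the others.

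Between MIST1 and the GFP control, the comparison the series was built for, limma called 0 of 39 matrix genes (1 at an unadjusted p under 0.05, LOXL2, 2.56% against 1.32% of all genes) and 0.0% of all genes. The fit of only these 4 arrays also called 0 matrix genes. The median change was 0.0, and 7 genes were higher in both of the lines and 12 lower, 17.9% and 30.8% against 24.3% and 32.6% of all genes. The probe set of BHLHA15 itself differed by -0.065 in AGS and -0.076 in HGC-27 between these arrays, and no label states whether it reads the plasmid's transcript. No matrix gene passed 1.5-fold in both lines, against 0.211% of all genes upward and 0.0218% downward. In AGS, 1 gene was past 1.5-fold upward and 1 downward, against 1.11% and 0.721% of all genes, and in HGC-27 1 upward and 2 downward, against 1.3% and 1.14%.

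Of the 5 genes with the greatest mean change in 1 direction, 4 were lower with MIST1. LOXL2 went from 32.1 to 13.6 on the AGS arrays and from 704 to 598 on those of HGC-27 (mean -0.55, SE 0.21). The other LOXL2 probe set that passed the filter was not lower, at 1.01-fold in AGS and 1.21-fold in HGC-27. COL6A2 went from 19.8 to 14.1 and from 206 to 127 (-0.44, SE 0.23). LOX went from 42.8 to 33.6 and from 2842 to 2276 (-0.34, SE 0.18). None of these was past the threshold, and the AGS values of LOXL2 and COL6A2 straddle the floor. COL11A1 had a mean change of -0.30 that turned to 0.06 without the AGS GFP control array. FN1 was higher with MIST1, 213 against 346 in HGC-27 and 11.4 against 17.8 at the floor in AGS (0.36, SE 0.23). CCN2 went from 2931 to 3704 on the AGS arrays and from 181 to 200 on those of HGC-27, and CCN1 from 892 to 1135 and from 930 to 976, neither of them called. The fibrillar collagens had a median change of -0.08 and the basement membrane collagens of -0.01, with 0 called by limma in either group (0 at an unadjusted p under 0.05).

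**Figure D4:**
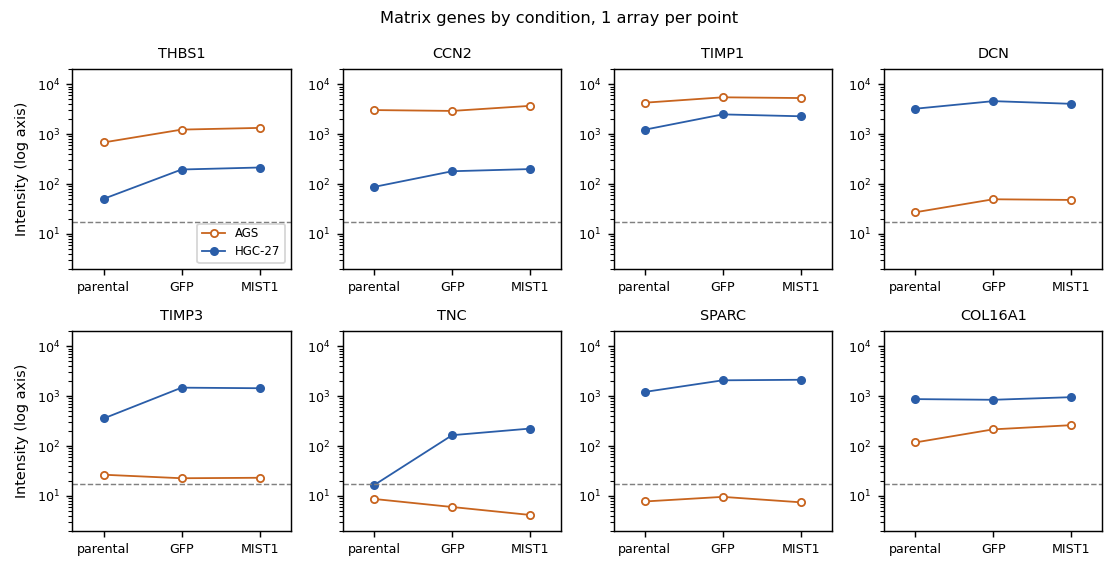
Deposited intensity (log axis) of 8 matrix genes in the parental, GFP control and MIST1 arrays of AGS (open orange) and HGC-27 (filled blue), 1 array per point, with the floor of 17.6 dashed. THBS1 lies higher on both transfected arrays of each line, TNC and TIMP3 on those of HGC-27, and the GFP and MIST1 points lie close together in each panel.

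**Figure D5:**
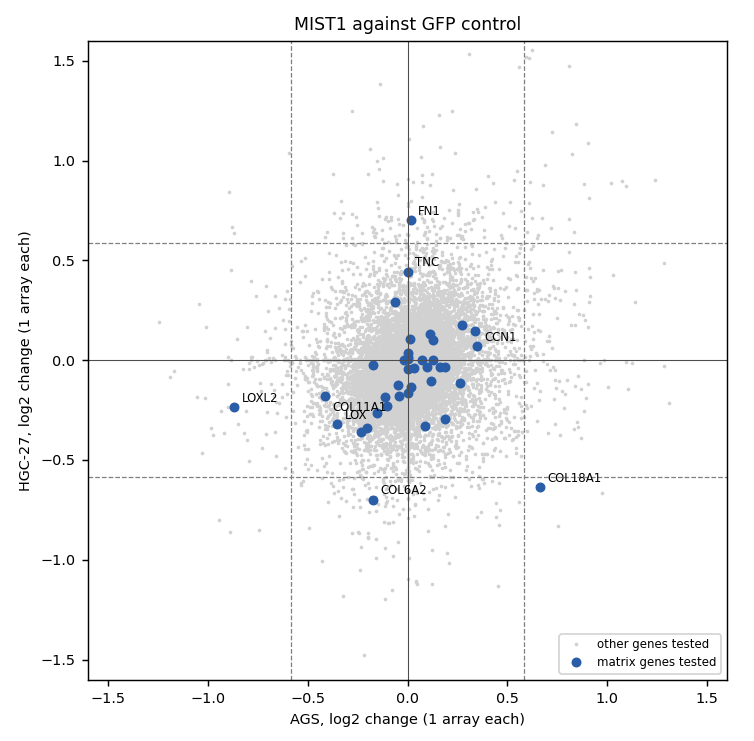
Log2 change of MIST1 against the GFP control in AGS (horizontal) and HGC-27 (vertical), 1 array each, for all genes tested (grey) and the 39 matrix genes (blue), with dashed lines at 1.5-fold and 9 genes, none of them a matrix gene, outside the axes. No matrix gene is past 1.5-fold in the same direction in both lines, and COL18A1 lies at 0.67 in AGS and -0.64 in HGC-27.

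Between MIST1 and parental cells, which differ in transfection and sorting as well as in MIST1, limma called 1 of 39 matrix genes and 3.3% of all genes. At an unadjusted p under 0.05 were 17.9% of the matrix genes and 26.0% of all genes. THBS1 was higher by 1.53 (SE 0.28, limma adjusted p = 0.0473), from 684 to 1339 on the AGS arrays and from 50.6 to 215 on those of HGC-27. It was also the tested matrix gene past 1.5-fold in both lines, against 3.82% of all genes upward and 1.71% downward. This comparison shares its parental arrays with that of the GFP control, where THBS1 was 1.40 higher. The THBS1 call was lost with no floor, the floor at the median, no filter, no variance trend, no replicate block or a probe set not ending in _x_at or _s_at.

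The other genes with the greatest mean change were not called. CCN2 went from 3049 to 3704 on the AGS arrays and from 87.8 to 200 on those of HGC-27 (mean 0.73). COL16A1 went from 118 to 262 and from 873 to 955 (0.64). MMP2 went from 156 to 229 and from 307 to 483 (0.60, limma adjusted p = 0.0962), and TIMP1 from 4285 to 5314 and from 1232 to 2290 (0.60, limma adjusted p = 0.0868). All 4 were higher in both lines. BMP1, the protease that removes the C-terminal propeptide of procollagen, was called among the collagen-modifying genes, from 463 to 1136 on the AGS arrays and from 297 to 505 on those of HGC-27 (1.03, SE 0.16, limma adjusted p = 0.0419). Among the other 17 tested genes of that list, the 17 of the TGF-beta pathway, the 20 further matrix genes and the 17 further proteases, limma called 0 in this comparison (4, 5, 5 and 7 at an unadjusted p under 0.05). Of the cell type markers, S100A4 was called here, by 0.55 (limma adjusted p = 0.0419).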

How the data were processed

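The authors deposited a table of probe set values, read here as linear intensity because the values ran from 0.48 to 19070.49. dChip is named in the series' design text; background correction and scaling are not given in the sources used here. Deposited intensities were used unscaled, floored at 17.6, taken to log2 and kept where at least 2 of 6 arrays exceeded the median of 50.53. Single-gene probe sets came from the platform annotation.

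limma 3.58.1 in R 4.3.3 (lmFit, eBayes with trend) was fitted to 13738 genes on all 6 arrays with line and condition, leaving 2 residual and 4.46 prior degrees of freedom, with two-sided tests, Benjamini-Hochberg adjustment over all genes and a threshold of 0.05. The labels pair the 3 arrays of a line, so cell line was the block. The fit was tested on simulated data. Members and gene lists were chosen with earlier results of these data known.

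Values on all 6 arrays were given for the 20 called genes with the largest line difference; for conditions, genes past 1.5-fold in both lines or else the 5 largest same-direction changes. Other genes named with values were chosen after their values were seen. Alternatives changed the floor, filter, normalization, probe set, variance trend, block, arrays and fold limit. Upstream sequences were RefSeq's.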

Additional observations from a re-analysis of the deposited data

Results flagged for a closer look

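COL18A1 changed by at least 1.5-fold in opposite directions in the 2 lines between the GFP control and MIST1, and was picked out for that. In AGS it went from 22.7 to 36.0, a log2 change of 0.67, and in HGC-27 from 87.0 to 56.0, a log2 change of -0.64. Another COL18A1 probe set, which did not pass the filter, was lower with MIST1 in both lines. Its log2 changes were -0.37 in AGS and -0.08 in HGC-27. The difference between the lines was not tested, since each value rests on 1 array per condition, and the AGS intensities lie near the floor of 17.6.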

How the results depend on the processing

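The count of matrix genes that differ between the lines, 34, moved to 32 at the lowest and 36 at the highest over all alternatives, including a fit without the 2 parental arrays that was chosen after seeing the data, and to 33 without the condition as the replicate block. Of 300 recomputed differences of the 20 leading genes, 299 kept direction and call and 1, COL3A1 by another probe set, lost the call; of the others, COL4A2, MMP7, COL18A1 and TNC lost it and COL6A1, MMP14 and CCN1 gained it under the settings named beside them. For the GFP control against parental, the count of 0 became 6 with only the 4 arrays compared and 0 to 18 with 1 array left out, and was 0 under every other alternative run, including no replicate block (line not used as pairing). For MIST1 against the GFP control it was 0 under all alternatives. For MIST1 against parental, the count of 1 became 0 with no floor, floor at the median, no filter, probe sets not ending in _x_at or _s_at, no variance trend and no replicate block, 4 with only the 4 arrays compared, and 1 to 16 with 1 array left out (3.3% to 39.3% of all genes): 16 without the AGS parental, 12 without the HGC-27 parental, 4 without the AGS MIST1 array, 4 without that of the HGC-27 control and 3 without that of the AGS control. The mean change of COL11A1 between MIST1 and the GFP control ranged from -0.65 to 0.06 with 1 array left out, reversed at 0.06 without the AGS control. Genes past 1.5-fold in both lines for the GFP control against parental numbered 1, and 2 without the filter (COL6A3, lower) or with the mean of all probe sets (MMP14, higher). They numbered 7 at 1.2-fold, of which COL13A1 was lower, and 0 at 2-fold. With probe sets not ending in _x_at or _s_at the 1 gene was COL3A1. For MIST1 against the GFP control, 0 became 1 with no floor (FN1, higher) and 1 at 1.2-fold (LOX, lower). For MIST1 against parental, 1 became 2 without the filter (COL6A3, lower) or with the mean of all probe sets (MMP14, higher), and 0 with probe sets not ending in _x_at or _s_at. It became 10 at 1.2-fold, of which COL4A2, COL6A2 and COL13A1 were lower, and 0 at 2-fold. The shares of all genes at 1.2-fold are not given here. The number of arrays, 1 per line and condition, and intensities under the floor limit the precision of every value; the cause of each change was not tested.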

Other observations

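Among the further matrix-related genes, a few moved with condition in 1 line and were singled out after their values were seen. MMP1, the interstitial collagenase, went from 1323 on the AGS parental array to 310 on the GFP control and 462 on the MIST1 array, and was under the floor in HGC-27. CTSK, cathepsin K, a collagen-degrading protease, read 324, 519 and 991 on the parental, GFP control and MIST1 arrays of HGC-27 and 120, 136 and 148 on those of AGS. TGFB3 read 208, 548 and 771 in HGC-27 and at most 37.6 in AGS. None of the 3 was called by limma in a comparison of conditions (adjusted p for MIST1 against parental 0.336, 0.113 and 0.0949).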
